A study of Arabidopsis thaliana with 12 samples.

Results

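The 10 genes described here are the 5 ethylene receptor genes, which are ETR1 (AT1G66340) and ERS1 (AT2G40940) of subfamily 1 and ETR2 (AT3G23150), EIN4 (AT3G04580) and ERS2 (AT1G04310) of subfamily 2, together with RTE1 (AT2G26070), CTR1 (AT5G03730), EIN3 (AT3G20770), EBF1 (AT2G25490) and EBF2 (AT5G25350). They were taken by locus code from a table of 23916 genes, and all 10 passed the filter on low values (at least 1 TPM in 3 or more libraries). Transcripts were measured by RNA sequencing in whole Arabidopsis thaliana seedlings, 10 days old and grown at 22 °C in days of 16 h of light, with 3 libraries in each of 4 genotypes. The T31A group (h3.3ko;HTR5 T31A) and the K36A group (h3.3ko;HTR5 K36A) both carry a labelled knockout of histone H3.3 and a copy of the H3.3 gene HTR5 with 1 residue changed to alanine, at threonine 31 in the one and at lysine 36, which carries H3K36 methylation, in the other. The efs group is mutated in EFS, an enzyme that methylates that lysine, and Col is the wild type. A knockout rescued with unaltered HTR5 was not analysed here. What separates T31A or K36A from Col is therefore the labelled knockout of H3.3, the added copy and the substitution at once. The labels give no promoter for the HTR5 copy, no number of lines and no lesion for efs.

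Ethylene is a gaseous plant hormone that controls germination, seedling growth, stress responses and ageing. Its receptors sit in the membrane of the endoplasmic reticulum and are active without ethylene, when they keep the kinase CTR1 switched on and the pathway shut. Ethylene binding inactivates receptors and CTR1, the membrane protein EIN2 then signals to the nucleus, and the transcription factor EIN3 accumulates because its breakdown through the F-box proteins EBF1 and EBF2 ceases. Several genes of the pathway are themselves raised by ethylene in Arabidopsis, among them the receptor genes ETR2, ERS1 and ERS2 and the F-box gene EBF2, so that their transcripts can follow the activity of the pathway as well as supply its parts.

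As a check on the labels, the H3.3 gene HTR8 lay between 12.4 and 18.7 TPM in T31A and between 18.1 and 22.5 TPM in K36A, against 107.9 to 146.8 TPM in Col, while HTR4 kept a mean of 192 TPM in T31A and 167 TPM in K36A, against 276 TPM in Col. EFS averaged 15.4 ± 1.04 TPM in efs and 15.6 ± 1.91 TPM in Col (SD, n = 3 each), so its level checked no label. HTR5, the gene of the added copy, averaged 652.6 ± 25.1 TPM in T31A and 590.6 ± 3.26 TPM in K36A. In efs and Col it averaged 393.6 ± 7.88 and 328.7 ± 40.7 TPM. The levels of HTR4 and HTR5 alone did not show a knockout. TPM, the deposited value, is a read count scaled by gene length and library total. The total recovered from it was 17621000 to 34098031 reads per library, and the 10 genes had between 108 (ERS2, Col replicate 3) and 6310 reads (EIN3, T31A replicate 1) each. Green-tissue markers were abundant in all libraries, root markers were present, and the 4 flower markers summed to at most 4.46 TPM, with AP1 at 0 in T31A, efs and Col. Nothing in the labels ties the replicates to separately grown seedlings, and p-values here reflect only how far these samples spread, which may be technical.

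The upstream sequences of the 4 genes known to be raised by ethylene are shown because 2 of them, ERS1 and ERS2, had the largest rises in efs and the other 2, ETR2 and EBF2, fell in K36A. Each is the 200 bases before the annotated gene start, 5′ to 3′ on the gene's strand, from RefSeq TAIR10.1. They lie at chr2:17087327-17087526 (minus strand) for ERS1, chr1:1157814-1158013 (minus strand) for ERS2, chr3:8254359-8254558 (plus strand) for ETR2 and chr5:8797350-8797549 (minus strand) for EBF2. Capitals mark matches, on either strand, to ATGNANCT, letters based on the consensus of TEIL, the EIN3-like factor of tobacco. Matches were searched in the 250 bases before the start.
ERS1: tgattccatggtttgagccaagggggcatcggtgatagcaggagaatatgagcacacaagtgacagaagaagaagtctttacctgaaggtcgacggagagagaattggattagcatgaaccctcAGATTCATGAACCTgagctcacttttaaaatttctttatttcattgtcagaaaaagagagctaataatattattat
ERS2: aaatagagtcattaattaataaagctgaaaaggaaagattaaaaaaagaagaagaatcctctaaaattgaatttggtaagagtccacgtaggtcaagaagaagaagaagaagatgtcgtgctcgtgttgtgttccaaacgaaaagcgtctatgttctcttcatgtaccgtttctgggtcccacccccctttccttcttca
ETR2: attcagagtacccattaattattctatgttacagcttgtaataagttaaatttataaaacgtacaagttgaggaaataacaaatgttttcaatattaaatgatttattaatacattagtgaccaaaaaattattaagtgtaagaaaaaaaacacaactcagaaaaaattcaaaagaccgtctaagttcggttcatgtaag
EBF2: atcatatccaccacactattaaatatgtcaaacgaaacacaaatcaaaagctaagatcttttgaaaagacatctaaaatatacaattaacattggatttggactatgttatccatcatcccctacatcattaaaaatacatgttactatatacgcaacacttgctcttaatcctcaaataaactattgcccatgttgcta
ERS1 held a pair of matches that overlap by 2 bases, at bases 76 to 69 before the start on the minus strand and at bases 70 to 63 on the plus strand, and ERS2, ETR2 and EBF2 held none. Among the 10 genes, ERS1 and CTR1 had a match, which is 20% of them, against 12.5% of 27443 protein-coding genes with a window of the same length. GCCGCC, the GCC box bound by ethylene response factors, was in none of the 10 windows and in 1.87% of all. These are matches of letters in a short window and say nothing of binding.

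At the deposited scaling, the libraries labelled efs had higher transcript levels of most of these 10 genes. Of the 10 genes, 9 rose in efs against Col, between 1.21-fold (ETR1) and 1.92-fold (ERS2) in mean TPM, and none fell, while EBF1 did not pass the test. Among all 19984 tested genes, 31.4% rose and 17.4% fell in this comparison at the same threshold, an adjusted p under 0.05 from limma. All tested genes together were shifted upwards in efs, with a median difference of 0.12 on the log2(TPM + 1) scale, against a median of 0.37 for the 10 genes. With median-of-ratios factors, which take most of that shift out, 5 of the 10 genes were higher (ERS1, ERS2, CTR1, EIN3 and EBF2) and 1 was lower (EBF1), against 21.3% and 23.2% of all tested genes. With quantile normalization the same 5 were higher and none was lower, against 22.9% and 21.9%. Among all called genes, the share that was higher in efs was 64.4% as deposited and 47.9% with median-of-ratios factors, while in K36A it was 71.7% and 47.7% and in T31A 58.5% and 44.6%. In whole seedlings, fewer cells of a type and less RNA per cell cannot be told apart.

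Tissue markers were read in the same libraries. The 11 root markers summed to 127.7 to 141.0 TPM in T31A, 214.5 to 230.7 TPM in K36A and 174.2 to 185.6 TPM in efs, against 134.6 to 193.5 TPM in Col. The sums of efs lay within the range of Col, and those of T31A overlapped it. Of the 10 that could be tested, 4 were lower in T31A and none higher (11.1% and 15.7% of all tested genes). Those lower were COBL9, LRX1, EXPA7 and IRT1, while RHD6, SCR, SHR, WER, CASP1 and MYB36 were not called in T31A. In K36A 7 were higher and none lower (22.6% and 8.9% of all), and in efs 2 were higher and none lower (31.4% and 17.4% of all). The 5 green-tissue markers summed to 25730 to 27170 TPM in T31A, 23940 to 25270 TPM in K36A and 21850 to 22380 TPM in efs, against 27880 to 30040 TPM in Col. Among them none was higher, while T31A had 2 lower (11.1% of all tested genes), K36A 4 (8.9% of all) and efs 4 (17.4% of all). The 4 flower markers summed to 1.05 to 1.39 TPM in T31A, 1.69 to 1.77 TPM in K36A and 3.78 to 4.46 TPM in efs, against 1.16 to 1.52 TPM in Col. Most of the efs sum was a single gene, PI, at 3.92 ± 0.481 TPM against 1.24 ± 0.193 TPM in Col. PI was the only flower marker tested and was called higher in efs (adjusted p = 4.8e-06, limma) and not called in T31A or K36A. The part of tissue make-up in the differences described here was not tested.

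**Figure D1:**
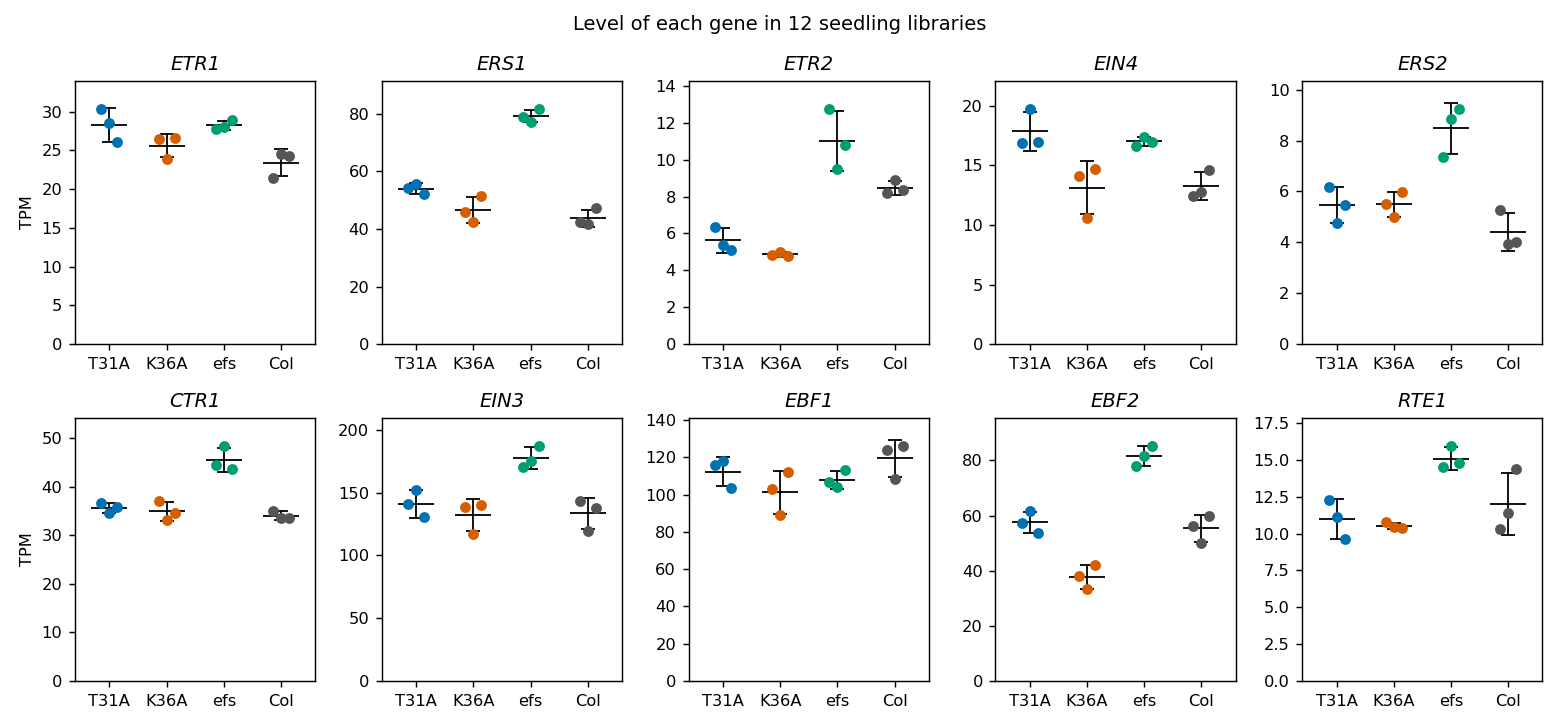
TPM of each of the 10 genes (vertical axis, from 0) in T31A, K36A, efs and Col. Points are the 3 libraries of a genotype and bars the mean with its SD. The ERS1 points lie at 77.2 to 81.6 TPM in efs and at 41.6 to 47.1 TPM in Col.

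ERS1, a receptor of subfamily 1 that lacks the receiver domain present in ETR1, showed the smallest p of the 10 genes in efs. It stood at 78.8, 77.2 and 81.6 TPM in efs replicates 1, 2 and 3, against 42.4, 41.6 and 47.1 TPM in Col. The efs libraries lay above Col without overlap, with a log2 difference of 0.84 (SE 0.07, adjusted p = 4.1e-07), or 1.81-fold. In T31A it stood at 54.3, 55.7 and 52.1 TPM, also above every Col library, with a difference of 0.30 (SE 0.07, adjusted p = 0.00829). In K36A it stood at 46.0, 42.5 and 51.4 TPM, which overlaps Col (difference 0.09, 95% interval -0.07 to 0.25, adjusted p = 0.385). ERS1 overlaps the gene AT2G40935 on the other strand, which averaged 11.7 ± 1.43 TPM in T31A and 10.2 ± 1.6 TPM in efs, against 8.19 ± 2.26 TPM in Col, and no source used here says whether counting used strand.

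ERS2, the receptor of subfamily 2 that likewise has no receiver domain, was per transcript length the least abundant gene of the 10 in Col and had the largest fold in efs. It stood at 7.35, 8.85 and 9.23 TPM in efs, against 5.27, 3.93 and 4.02 TPM in Col. All efs libraries were above all Col libraries, with a log2 difference of 0.81 (SE 0.12, adjusted p = 9.9e-05). It did not pass the test in T31A, at 6.17, 4.74 and 5.47 TPM (difference 0.26, SE 0.12, adjusted p = 0.14), or in K36A, at 5.49, 5.01 and 5.995 TPM (difference 0.27, SE 0.12, adjusted p = 0.112). Leaving out Col replicate 1, the highest Col library, gave calls in both, with differences of 0.37 (adjusted p = 0.0375) in T31A and 0.38 (adjusted p = 0.0267) in K36A.

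ETR2, a subfamily 2 receptor with a receiver domain and a known target of ethylene induction, was the only receptor gene that was called in opposite directions in different mutants. It stood at 6.37, 5.38 and 5.11 TPM in T31A and at 4.81, 5.002 and 4.77 TPM in K36A, against 8.17, 8.91 and 8.36 TPM in Col. The libraries of T31A and K36A were all below those of Col, with log2 differences of -0.52 (SE 0.11, adjusted p = 0.0024) in T31A and -0.69 (SE 0.11, adjusted p = 2.8e-04) in K36A. In efs it stood at 12.7, 9.52 and 10.8 TPM, above all Col libraries, with a difference of 0.33 (SE 0.11, adjusted p = 0.0187). The efs call failed under median-of-ratios scaling (adjusted p = 0.0842), with quantile normalization (adjusted p = 0.0648) and without efs replicate 1 (adjusted p = 0.103), while the falls in T31A and K36A passed in all 14 alternatives. ETR2 had 130 to 381 reads per library.

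EIN4, a subfamily 2 receptor with a receiver domain, in which dominant mutations make plants insensitive to ethylene, stood at 16.9, 19.7 and 16.9 TPM in T31A and 16.6, 17.4 and 17.0 TPM in efs, against 12.4, 12.7 and 14.6 TPM in Col. Libraries of T31A and of efs were all above Col, with log2 differences of 0.40 (SE 0.11, adjusted p = 0.0139) in T31A and 0.34 (SE 0.11, adjusted p = 0.019) in efs. Its K36A libraries, at 14.1, 10.6 and 14.7 TPM, overlapped Col. The T31A call was lost without T31A replicate 2 (adjusted p = 0.0692). The efs call failed under median-of-ratios scaling (adjusted p = 0.0817) and quantile normalization (adjusted p = 0.0625), without efs replicate 2 (adjusted p = 0.0561) and without Col replicate 2 (adjusted p = 0.0572).

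ETR1, the founding receptor of the family, changed least among the receptor genes that were called. It stood at 30.3, 28.5 and 26.0 TPM in T31A and 27.8, 28.1 and 28.9 TPM in efs, against 21.4, 24.5 and 24.3 TPM in Col. Both mutants lay above Col without overlap, by 0.26 on the log2 scale in each (SE 0.08, adjusted p = 0.0221 in T31A and 0.0122 in efs). In K36A it stood at 26.4, 23.9 and 26.6 TPM, overlapping Col (adjusted p = 0.237). The T31A call failed in 6 of 14 alternatives, with adjusted p from 0.0174 to 0.104 over the 14. It failed under median-of-ratios scaling (0.0656), under quantile normalization (0.0567) and with the 2 genotypes alone (0.0692). The other failures were the fits without T31A replicate 1 (0.104), T31A replicate 2 (0.0673) or Col replicate 1 (0.0568). The efs call failed under median-of-ratios scaling (adjusted p = 0.123) and quantile normalization (adjusted p = 0.0698). ETR1 overlaps AT1G66345 on the same strand, which averaged 9.62 ± 1.11 TPM in efs and 7.12 ± 0.31 TPM in Col.

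RTE1, a membrane protein that binds ETR1 and promotes its signalling, stood at 14.5, 16.0 and 14.8 TPM in efs, against 10.3, 11.4 and 14.4 TPM in Col. The efs libraries lay just above the highest Col library, replicate 3, and the log2 difference was 0.31 (SE 0.11, adjusted p = 0.0298). This call failed in 7 of 14 alternatives (adjusted p from 0.00337 to 0.154), among them the fits without efs replicate 2 (0.097), efs replicate 3 (0.0567), Col replicate 1 (0.105) or Col replicate 2 (0.0867). In T31A and K36A it averaged 11.02 ± 1.35 and 10.5 ± 0.209 TPM, within the Col range or overlapping it, and was not called (adjusted p = 0.496 and 0.28).

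Summed over the 5 receptor genes, and given as spliced RPKM (reads per kilobase of the longest transcript, scaled by library total) so that genes can be added, the level was 57.8 to 61.4 RPKM in T31A, 47.8 to 55.3 in K36A and 75.4 to 78.2 in efs, against 46.9 to 52.9 in Col. The efs sums were the highest and stood apart from all others, and those of K36A overlapped Col. ERS1 made up 56.1% to 56.6% of this sum in efs, against 46.6% to 49.2% in Col. ETR2 made up 4.13% to 4.88% in T31A and 4.01% to 4.996% in K36A, against 7.44% to 8.51% in Col, so its share was lower in both H3.3 groups in every library. These shares do not depend on the library scaling, and they describe transcripts, not receptor protein.

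CTR1, the kinase that receptors hold active and that represses the pathway, rose in efs alone among the comparisons with Col. It stood at 44.6, 48.4 and 43.7 TPM in efs, against 35.1, 33.6 and 33.5 TPM in Col, a log2 difference of 0.41 (SE 0.06, adjusted p = 1.4e-04) that passed in all 14 alternatives. It averaged 35.7 ± 1.01 TPM in T31A and 35.0 ± 1.96 TPM in K36A, against 34.1 ± 0.871 TPM in Col. The 95% intervals of those differences were -0.08 to 0.20 in T31A and -0.10 to 0.17 in K36A. In direct comparison CTR1 was lower in T31A than in efs (difference -0.34, SE 0.06, adjusted p = 7.4e-04) and lower in K36A than in efs (difference -0.37, SE 0.06, adjusted p = 3.8e-04).

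EIN3, the transcription factor at the end of the pathway, which is controlled largely through the stability of its protein, also rose in efs. It stood at 170.7, 175.0 and 187.3 TPM in efs, against 143.3, 119.6 and 137.9 TPM in Col. All efs libraries were above all Col libraries, with a log2 difference of 0.41 (SE 0.09, adjusted p = 0.00138) that passed in all 14 alternatives. In T31A, at 140.7, 152.2 and 130.4 TPM, and in K36A, at 138.9, 117.4 and 140.4 TPM, its range overlapped Col, with adjusted p = 0.542 and 0.917.

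**Figure D2:**
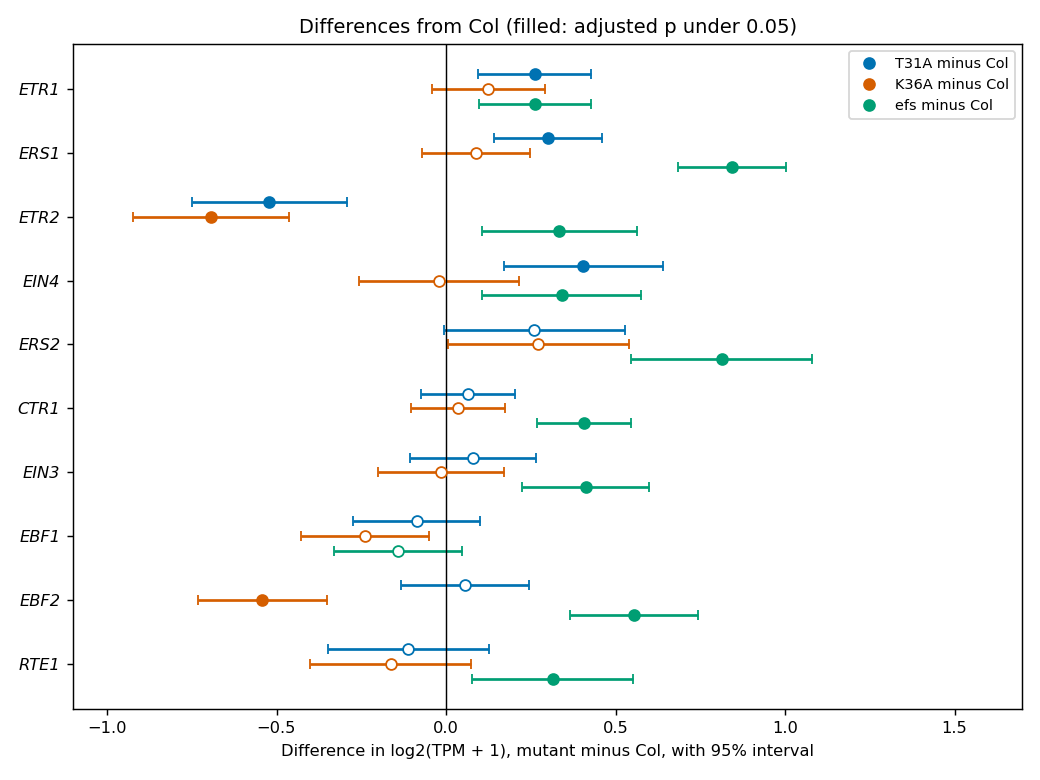
Difference from Col in log2(TPM + 1) (horizontal axis) for each of the 10 genes in T31A, K36A and efs, with its 95% interval. Filled points have an adjusted p under 0.05, and ETR2 and EBF2 have called points on both sides of 0.

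EBF1 and EBF2, the F-box proteins that mark EIN3 for breakdown, differed in their calls. EBF2, the gene of the pair known to be raised by ethylene, stood at 38.0, 33.4 and 42.0 TPM in K36A and at 78.1, 81.7 and 85.3 TPM in efs, against 56.3, 50.2 and 59.7 TPM in Col. The K36A libraries were all below Col and the efs libraries all above it, with log2 differences of -0.54 (SE 0.09, adjusted p = 4.4e-04) in K36A and 0.55 (SE 0.09, adjusted p = 1.3e-04) in efs. In T31A it stood at 57.4, 61.5 and 53.8 TPM and overlapped Col (difference 0.06, 95% interval -0.13 to 0.25, adjusted p = 0.683). The calls in K36A and efs passed in all 14 alternatives. EBF2 overlaps AT5G25340 and the antisense RNA AT5G03965, both on the other strand and not analysed here, and reads of the 2 strands cannot be told apart where strand was not used in counting.

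EBF1, which acts with EBF2 and is less responsive to ethylene, stood at 103.1, 88.9 and 111.9 TPM in K36A and 106.7, 103.8 and 113.3 TPM in efs, against 124.1, 108.2 and 126.1 TPM in Col. The ranges overlapped in both comparisons, and EBF1 was not called in T31A (adjusted p = 0.504), K36A (adjusted p = 0.052) or efs (adjusted p = 0.194). In K36A the difference of -0.24 (SE 0.09) was called in 5 of the 14 alternatives, among them median-of-ratios factors (-0.34, adjusted p = 0.00519). In efs the difference of -0.14 was called with median-of-ratios factors only (-0.25, adjusted p = 0.0184).

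The ratio of EBF2 to EBF1 was taken within a library and so is independent of its scaling. It was 0.497 to 0.521 in T31A, 0.369 to 0.376 in K36A and 0.732 to 0.787 in efs, against 0.454 to 0.474 in Col. No range of a genotype overlapped another, with K36A lowest, Col and T31A in the middle and efs highest. No test of this ratio was made.

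**Figure D3:**
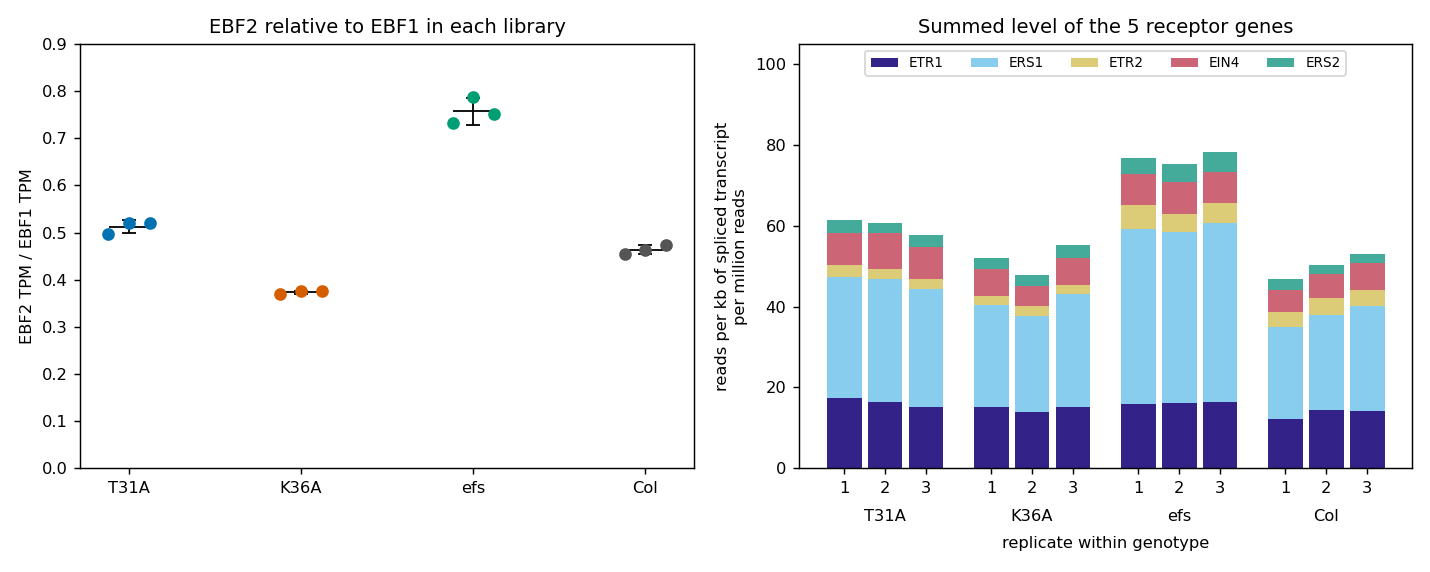
Left, EBF2 TPM divided by EBF1 TPM in each library, with the mean and SD of each genotype: the K36A points lie between 0.369 and 0.376 and the efs points between 0.732 and 0.787. Right, stacked level of the 5 receptor genes in each library, in spliced RPKM, where the efs bars reach 75.4 to 78.2 against 46.9 to 52.9 in Col.

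Against Col, then, 4 of the 10 genes were called in T31A, 3 higher (ETR1, ERS1 and EIN4) and 1 lower (ETR2), against 15.7% (higher) and 11.1% (lower) of the whole set tested. In K36A 2 were called, both lower (ETR2 and EBF2), against 22.6% (higher) and 8.9% (lower) of the whole set. The median difference of the 10 genes was 0.07 in T31A and -0.02 in K36A, against 0.04 and 0.09 for all tested genes. Without T31A replicate 2, the T31A count was 2. Under median-of-ratios scaling and under quantile normalization it was 3, with the call of ETR1 lost. The comparisons with Col share the 3 Col libraries.

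The mutants were also compared with each other, in the same fit. Of the 10 genes, 8 were lower in K36A than in efs and none was higher (17.4% and 20% of all tested genes), and 7 were lower in T31A than in efs and none was higher (22.4% and 16.7% of all). The K36A comparison left out ETR1 (adjusted p = 0.186) and EBF1 (adjusted p = 0.428), and the T31A comparison left out ETR1, EIN4 and EBF1. The call of EIN4 between K36A and efs (-0.36, adjusted p = 0.0178) was lost without K36A replicate 2 (adjusted p = 0.082) and without efs replicate 2 (adjusted p = 0.0563). The largest differences were those of EBF2 and ETR2 between K36A and efs, at -1.096 (SE 0.09, adjusted p = 2.6e-07) and -1.03 (SE 0.11, adjusted p = 3.3e-06), with all K36A libraries below all efs libraries. Between T31A and efs they were -0.50 (SE 0.09, adjusted p = 4.5e-04) for EBF2 and -0.86 (SE 0.11, adjusted p = 2.1e-05) for ETR2.

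T31A and K36A share the labelled knockout and differ in the substituted residue. HTR5 was also higher in every T31A library than in any K36A library, and its part in what follows was not tested. The 2 groups differed in 3 of the 10 genes, all higher in T31A, where 10.2% of all tested genes were called higher and 18% lower. That split depended on scaling: higher calls were 36.2% of all called genes as deposited, 46.8% under median-of-ratios scaling and 50.3% under quantile normalization, with 3 of the 10 genes called, all higher, in each. EBF2 was higher by 0.60 (SE 0.09, adjusted p = 1.7e-04), or 1.52-fold, and no T31A library overlapped K36A. EIN4 was higher by 0.42 (SE 0.11, adjusted p = 0.00958), a call lost without T31A replicate 2 (adjusted p = 0.0512). ERS1 was higher by 0.21 (SE 0.07, adjusted p = 0.0473), a call that failed in 7 of 14 alternatives, with adjusted p from 0.0128 to 0.19 over them, and in each fit without a T31A library (0.117, 0.146 and 0.0669 without replicates 1, 2 and 3) and without K36A replicate 1 (0.12) or 2 (0.19). Without T31A replicate 2, the count was 1. For ETR2, which was lower in both groups than in Col, the difference of 0.17 had a 95% interval of -0.06 to 0.40 (adjusted p = 0.266).

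Levels of different genes were compared as spliced RPKM, because the deposited TPM divides by the full annotated length, introns included, which for CTR1 is 1.69 times the longest transcript and for EIN4 1.03 times. On this scale EIN3 led in Col, at 71.7 ± 5.33 RPKM, followed by EBF1 at 59.6 ± 4.12. EBF2, CTR1 and ERS1, at 26.1 ± 2.07, 25.6 ± 0.287 and 24.1 ± 1.72, did not differ beyond their spread. ETR1 followed at 13.5 ± 1.26, then RTE1 and EIN4 at 6.87 ± 1.25 and 6.08 ± 0.591, which did not differ beyond their spread, ETR2 at 3.99 ± 0.264 and ERS2 at 2.34 ± 0.346. EIN3 and EBF1 were first and second in T31A, K36A and efs as well. ETR2 and ERS2 held the last places in every genotype. They did not differ beyond their spread in T31A (2.65 ± 0.3 and 2.92 ± 0.39 RPKM) or efs (5.13 ± 0.767 and 4.47 ± 0.504 RPKM), while in K36A ETR2 was the lower, at 2.29 ± 0.0888 against 2.93 ± 0.226 RPKM for ERS2.

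Ethylene is made from methionine by ACC synthases (ACS genes) and ACC oxidases (ACO genes). Of 14 listed genes 11 were tested, read at the deposited scaling only. In T31A 2 of the 11 were higher and 3 lower, where all tested genes had 15.7% higher and 11.1% lower. In K36A 4 were higher and 3 lower (22.6% and 8.9% of all), and in efs 8 were higher and 1 lower (31.4% and 17.4% of all). The list had a median difference of -0.25 in T31A, of -0.01 in K36A and of 0.37 in efs, against 0.04, 0.09 and 0.12 for all tested genes. The synthase gene ACS11 averaged 6.97 ± 0.155 TPM in T31A, 1.67 ± 0.192 TPM in K36A and 7.47 ± 1.61 TPM in efs, against 2.65 ± 0.392 TPM in Col, and was called in each, higher in T31A (adjusted p = 2.6e-05) and efs (adjusted p = 4.5e-06) and lower in K36A (adjusted p = 0.0207). The stress-induced synthase gene ACS6 rose in T31A to 12 ± 1.45 TPM and in K36A to 13.3 ± 2.61 TPM, against 6.44 ± 0.798 TPM in Col, and averaged 7.44 ± 0.273 TPM in efs (adjusted p = 0.236). AT1G12010, which the list took as an oxidase gene, fell in T31A to 5.08 ± 0.888 TPM and rose in K36A to 11 ± 0.44 TPM and in efs to 16.7 ± 0.885 TPM, against 6.81 ± 0.867 TPM in Col. The oxidase gene ACO5, which overlaps AT1G77320, rose in K36A to 33.2 ± 1.88 TPM and in efs to 27.4 ± 1.5 TPM, against 20.7 ± 3.2 TPM in Col.

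Counts for the further steps stand against the same shares of all tested genes: T31A had 15.7% higher and 11.1% lower, K36A had 22.6% and 8.9%, efs had 31.4% and 17.4%. All are at the deposited scaling only, where the median of all tested genes in efs was 0.12 above Col. ETO1, EOL1 and EOL2 target ACC synthases for breakdown. ETO1 and EOL1 rose in efs, with differences of 0.24 (SE 0.07, adjusted p = 0.0141) and 0.23 (SE 0.07, adjusted p = 0.0131). None of the 3 was called in T31A or K36A. Of 6 other genes of receptor function and signal transfer, 1 fell in T31A, 1 fell in K36A and 1 rose in efs. These were RAN1, which supplies copper to the receptors (61.3 ± 2.39 TPM in T31A, against 76.9 ± 5.6 TPM in Col), and ETP1 and ETP2, F-box proteins that target EIN2 (ETP1 28.6 ± 2.66 TPM in K36A and 40.5 ± 2.89 TPM in Col, ETP2 16.7 ± 0.668 TPM in efs and 13.3 ± 0.733 TPM in Col). RTH, a relative of RTE1 that overlaps AT3G51030, averaged 22.7 ± 1.98 TPM in efs and 20.1 ± 0.851 TPM in Col and was not called (adjusted p = 0.0868). Of 5 EIN3-like genes 3 were tested, and 1 was called, EIL1, the closest relative of EIN3, at 67.4 ± 0.214 TPM in K36A and 79.2 ± 9.82 TPM in Col (adjusted p = 0.0363).

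Of 16 listed genes known to be induced by ethylene, 13 were tested, read at the deposited scaling only. This list, like the others, was chosen with earlier results of these data known, so its counts are a description. In T31A 7 of the 13 were higher and none lower, beside 15.7% and 11.1% of all tested genes. In K36A 4 were higher and 1 (ERF2) lower, beside 22.6% and 8.9%, so that the higher share was near that of all genes. In efs 9 were higher and none lower, beside 31.4% and 17.4%. The list's median difference was 0.27 (T31A), 0.06 (K36A) and 0.93 (efs), against 0.04, 0.09 and 0.12 for all tested genes. EDF1, a repressor of flowering also called TEM1, averaged 53.5 ± 1.36 TPM in T31A, 50.4 ± 1.61 TPM in K36A and 92.3 ± 7.74 TPM in efs, against 36.6 ± 2 TPM in Col, and was higher in each (adjusted p = 5.5e-05, 2.7e-04 and 1.9e-09). EDF4, a related transcription factor gene, rose in K36A to 70.7 ± 2.15 TPM and in efs to 118.6 ± 1.24 TPM, against 55.5 ± 6.02 TPM in Col. ARL, a gene of organ growth, rose in T31A to 16.1 ± 2.25 TPM and in efs to 36.6 ± 5.57 TPM, against 11.4 ± 0.682 TPM in Col. The response factor gene ERF-1 (AT4G17500) rose in T31A to 39.6 ± 3.37 TPM and in efs to 58.1 ± 3.6 TPM, against 28.1 ± 1.7 TPM in Col. Many of these genes also answer to other signals, and no library treated with ethylene was analysed here.

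**Figure D4:**
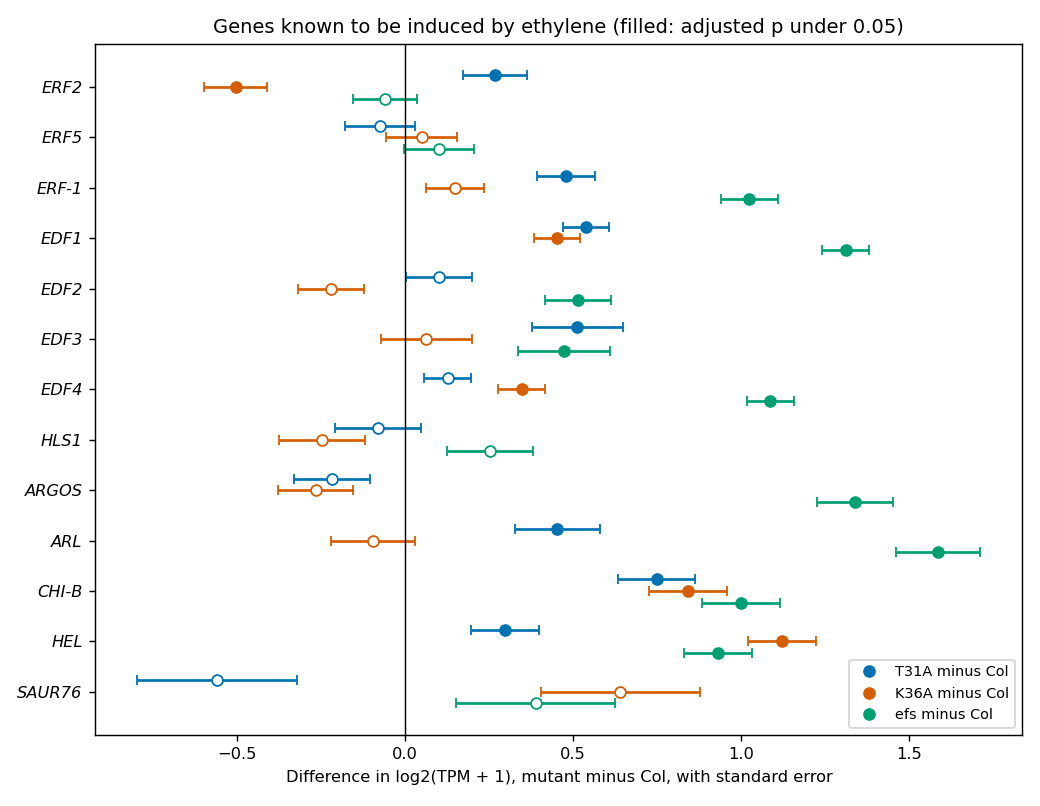
Difference from Col in log2(TPM + 1) (horizontal axis, with standard error) for the 13 tested genes known to be induced by ethylene in T31A, K36A and efs. Filled points have an adjusted p under 0.05: 7 points to the right of 0 in T31A, 4 in K36A and 9 in efs.

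For the 2 genes with the largest differences from Col, ERS1 and ERS2, the genes with the most similar course over the 12 libraries were read from the Pearson correlation of log2(TPM + 1) over 15941 tested genes with a mean of at least 5 TPM. These values rest on 4 genotypes with 3 libraries each and are a description. ERS1 was most like AT5G65910 (r = 0.991), SKU5 (r = 0.989) and SDP1 (r = 0.988). SKU5, a cell wall protein of directional root growth, averaged 180.6 ± 9.9 TPM in T31A, 134.0 ± 13.4 TPM in K36A and 284 ± 14.8 TPM in efs, against 130.7 ± 6.16 TPM in Col, the same order as ERS1. ERS2 was most like DEG9 (r = 0.972), AT5G05140 (r = 0.966) and TMT1 (r = 0.961). TMT1, a sugar transporter of the vacuole membrane, averaged 54.3 ± 3.71 TPM in T31A, 53.7 ± 1.37 TPM in K36A and 89.3 ± 1.83 TPM in efs, against 41.9 ± 4.89 TPM in Col.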

How the data were processed

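RNA was sequenced in 12 seedling libraries. The submitters' processing notes name fastp 0.20.1, HISAT2 2.1.10, DESeq2 1.26.0 and the build TAIR10; the counting tool and its strand setting are not given in the sources used here. Deposited by the authors is 1 TPM value per gene and library: the columns are named as gene counts, but each sums to the same TPM total. TPM multiplied by gene span gave back whole reads (within 0.02 reads in at least 99.98% of genes under 200 reads), which gave the depths. Reference names, gene models and sequences are from RefSeq TAIR10.1, in which 23745 of 23916 locus codes were found.

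Genes reaching 1 TPM in 3 or more libraries were kept. Log2(TPM + 1), a scale that understates changes of low genes, was fitted with limma 3.58.1 in R 4.3.3 over all 12 libraries and 4 genotypes with a mean-dependent prior variance. Moderated two-sided p-values were adjusted by Benjamini-Hochberg over 19984 genes and called under 0.05. On simulated counts for 19650 genes under T31A against Col, 100% of genes with a log2 change of 1 and 48% with 0.5 were called. The share of genes changed in the simulation and the spread it used are not given here. These rates therefore describe the simulation and are not the power of the real comparisons. In the real data, ETR1 was called in T31A against Col with a difference of 0.26. SDs have n = 3. Ranges that do not overlap describe 3 libraries against 3 and are no test. The share of all tested genes with such ranges is not given here. ETR2 between T31A and K36A (adjusted p = 0.266) and ETR1 between K36A and efs (adjusted p = 0.186) had such ranges without a limma call. The 14 alternatives for each gene and comparison were pseudocounts of 0.1 and 5, no filter, a mean of at least 5 TPM, median-of-ratios factors, quantile normalization, the 2 genotypes alone, a replicate block, and each of the 6 libraries left out in turn.

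All 10 members are named. The alternatives are given for these 10 genes, while the lists, tissue markers included, were read at the deposited scaling only. Other genes are up to 4 per list with the smallest adjusted p against Col, and the 3 genes most correlated with each of the 2 members that differed most from Col. Members and lists were chosen with earlier results of these data known.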

Additional observations from a re-analysis of the deposited data

Results flagged for a closer look

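ETR2 and EBF2 are listed because they were called in opposite directions against Col in different mutants and the direct comparison of those mutants was called too. ETR2 was lower in T31A and K36A and higher in efs than in Col, with log2(TPM + 1) differences of -0.855 for T31A minus efs (adjusted p = 2.1e-05) and -1.027 for K36A minus efs (adjusted p = 3.3e-06). EBF2 was lower in K36A and higher in efs than in Col, with a difference of -1.096 for K36A minus efs (adjusted p = 2.6e-07). In each case all 3 libraries of the first genotype lay below all 3 of efs. The call of ETR2 in efs against Col was lost under median-of-ratios scaling and quantile normalization, with a positive difference in both, while these 3 direct differences passed in all 14 alternatives.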

How the results depend on the processing

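Each of the 60 gene differences was recomputed under 14 alternatives. Where no library was left out, 455 values kept their direction and their side of the threshold, 14 lost a call, 4 gained a call and 7 changed sign. With a library left out, 322 stayed, 19 lost a call, 4 gained a call and 15 changed sign. No called difference changed sign. For efs minus Col, 9 genes were called as deposited, 6 under median-of-ratios scaling and 5 under quantile normalization. With a library left out, the called genes numbered 2 to 4 for T31A minus Col, 2 to 3 for K36A minus Col, 7 to 9 for efs minus Col, 1 to 3 for T31A minus K36A, 7 for T31A minus efs and 7 to 8 for K36A minus efs.

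The differences that changed sign were none of them called, and the cause was not tested. Under median-of-ratios scaling, K36A minus Col was -0.0110 for ERS1 and -0.0653 for CTR1, T31A minus K36A was 0.0318 for ERS2, and T31A minus efs was 0.0531 for ETR1. Under quantile normalization they were -0.0501 for CTR1, 0.0977 for ERS2 and 0.0310 for ETR1. With a library left out, T31A minus Col ran from -0.0127 to 0.1113 for EBF2 and from -0.2062 to 0.0139 for RTE1. K36A minus Col ran from -0.1013 to 0.1150 for EIN4, from -0.0072 to 0.0703 for CTR1 and from -0.0919 to 0.0681 for EIN3. T31A minus K36A ran from -0.0905 to 0.0702 for ERS2, from -0.0066 to 0.0710 for CTR1 and from -0.0253 to 0.1383 for RTE1. T31A minus efs ran from -0.0502 to 0.0558 for ETR1 and from -0.0062 to 0.0991 for EIN4.

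The main fit treated the replicates as unpaired. Correlations of deviations from the genotype means ran from -0.24 to 0.36 for same-numbered libraries and from -0.34 to 0.32 for differently numbered ones. With 3 libraries per genotype these ranges cannot settle whether replicate numbers pair the samples. With the replicate block, 3 genes were called for K36A minus Col instead of 2 (EBF1 gained, -0.24, adjusted p = 0.0466), and the counts of the other 5 comparisons were 4, 9, 3, 7 and 8, as without it. Precision is limited by 108 to 381 reads per library for ERS2, ETR2 and RTE1.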
